A study of Mus musculus with 24 samples.

Results

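The proteasome subunit genes were taken as the protein-coding genes of the brain and liver expression tables whose symbols start with Psma, Psmb, Psmc, Psmd or Psme followed by a digit. Of 55469 genes, 21599 of them protein-coding, 46 met this rule. The rule uses names only and no measured value. The 46 genes comprised 8 of the 20S alpha ring, 7 constitutive and 3 inducible genes of the 20S beta ring, the thymus subunit gene Psmb11, 6 ATPases, 2 other base subunits and 8 lid subunits of the 19S particle, and the ubiquitin receptor gene Psmd4. They also included 3 chaperones that assemble the 19S base (Psmd5, Psmd9, Psmd10), 5 genes of the PA28 and PA200 activators (Psme1, Psme2, Psme2b, Psme3, Psme4), and 2 genes that carry the symbol without encoding a subunit (Psmc3ip and Psme3ip1).

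Expression came from RNA sequencing of total RNA from brain and liver of mice on a C57BL/6N background. The study's methods describe male, age- and littermate-matched mice, and also say that matched mice came from different litters. Its reporting summary says that the results rest on both sexes. For the RNA sequencing itself the methods state neither sex nor litter. In each tissue 3 samples each were wild type (WT) or homozygous for a germline deletion of a single tRNA-Phe gene, giving 12 samples per tissue and 24 in all. These genes encode transfer RNAs that read phenylalanine codons. The line tRNA-Phe-1-1-/- lacks the gene 1-1 in every cell, tRNA-Phe-2-1-/- lacks 2-1 and tRNA-Phe-3-1-/- lacks 3-1. By the methods, the RNA came from several WT and several mutant mice, while the labels do not tie the replicate letters A, B and C to single mice, so the p-values are read as measuring the spread between these samples. The deleted tRNA genes were not analysed here, so genotypes rest on the labels.

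The proteasome is the large protease that degrades proteins tagged with ubiquitin. Its 20S core is a barrel of stacked alpha and beta rings, in which the alpha rings gate the entrance and the beta subunits Psmb5, Psmb6 and Psmb7 carry the catalytic sites. Interferon induces the alternative catalytic subunits Psmb8, Psmb9 and Psmb10, which replace the constitutive ones in the immunoproteasome. The 19S particle caps the barrel: its base of ATPases unfolds substrates, its lid removes ubiquitin, and Psmd4 binds ubiquitin chains. PA28 (Psme1 to Psme3) and PA200 (Psme4) are alternative caps. When proteasome activity falls, the transcription factor Nfe2l1 raises many subunit genes together.

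Recovered read totals ranged from 30365760 to 46225360 per brain sample and from 32276896 to 51584522 per liver sample. Of the 46 genes, 45 passed the filter of a mean normalised count of at least 10 in each tissue. The exception in both was Psmb11, which stayed between 0.987 and 11.02 normalised counts in brain and between 0 and 2.645 in liver. Hepatocyte markers (6 genes, among them Alb and Apoa1) summed to 2004890 to 3341470 normalised counts in liver and 643 to 1887 in brain, and 9 neuronal and glial markers summed to 172338 to 241741 in brain and 174 to 882 in liver. The brain sum hides spread: Alb was 625, 227 and 140 in WT and 851, 5.2 and 36.1 in tRNA-Phe-1-1-/-. It was 310, 599 and 877 in tRNA-Phe-2-1-/- and 3.23, 9.6 and 36.5 in tRNA-Phe-3-1-/-. In tRNA-Phe-3-1-/- brain, 5 of the 6 lay below WT in every sample, against 8.48% of all genes, and none was called. Any part of this in the proteasome values was not tested. The tissues were scaled separately. No marker gene was at 0 throughout a tissue.

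In WT liver, the mean level per kilobase of transcript was highest for core genes, at 3294 ± 124 (SD, n = 3) normalised counts per kilobase for Psmb6, 3136 ± 90.4 for Psmb4 and 2751 ± 151 for Psmb7. The 14 core subunits made in all tissues (Psma1 to Psma7 and Psmb1 to Psmb7) had a median level of 1447 per kilobase, from 381 for Psmb2 to Psmb6. The inducible subunits lay below that median, at 560 ± 94.97 for Psmb10, 368 ± 24.3 for Psmb8 and 277 ± 61.0 for Psmb9. In WT brain the median of the same 14 was 1147 per kilobase, while Psmb10 stood at 674 ± 2.49, Psmb8 at 44.3 ± 4.51 and Psmb9 at 23.8 ± 3.797. Psma8, the testis alpha subunit, reached only 19.04 ± 7.01 per kilobase in liver and 6.94 ± 2.79 in brain. Each level used the length of a single reference transcript per gene, so genes whose tissues use another isoform are misplaced on this scale.

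In liver, the core subunits were higher than WT in tRNA-Phe-2-1-/- and likewise in tRNA-Phe-3-1-/-, by a small amount, although no single one of them passed the test. All 14 had a log2 fold change above 0 in both lines, with a median of 0.20 in tRNA-Phe-2-1-/- (range 0.06 to 0.30) and 0.18 in tRNA-Phe-3-1-/- (range 0.06 to 0.31). In tRNA-Phe-1-1-/- the median was 0.04, with 11 of 14 above 0. All 3 tRNA-Phe-2-1-/- samples exceeded all 3 WT samples for 14 of 14 core genes, against 13.1% of all 15856 genes tested, and all 3 tRNA-Phe-3-1-/- samples did so for 12 of 14, against 9.85%. In tRNA-Phe-1-1-/- this held for 4 of 14, against 17.2%. With 3 samples against 3 an exact permutation test cannot give a two-sided p below 0.1, and the core genes share samples and are not independent of each other. The 3 lines were compared with the same 3 WT samples. Because these are bulk tissues, fewer cells of a type and less RNA per cell cannot be told apart.

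**Figure D1:**
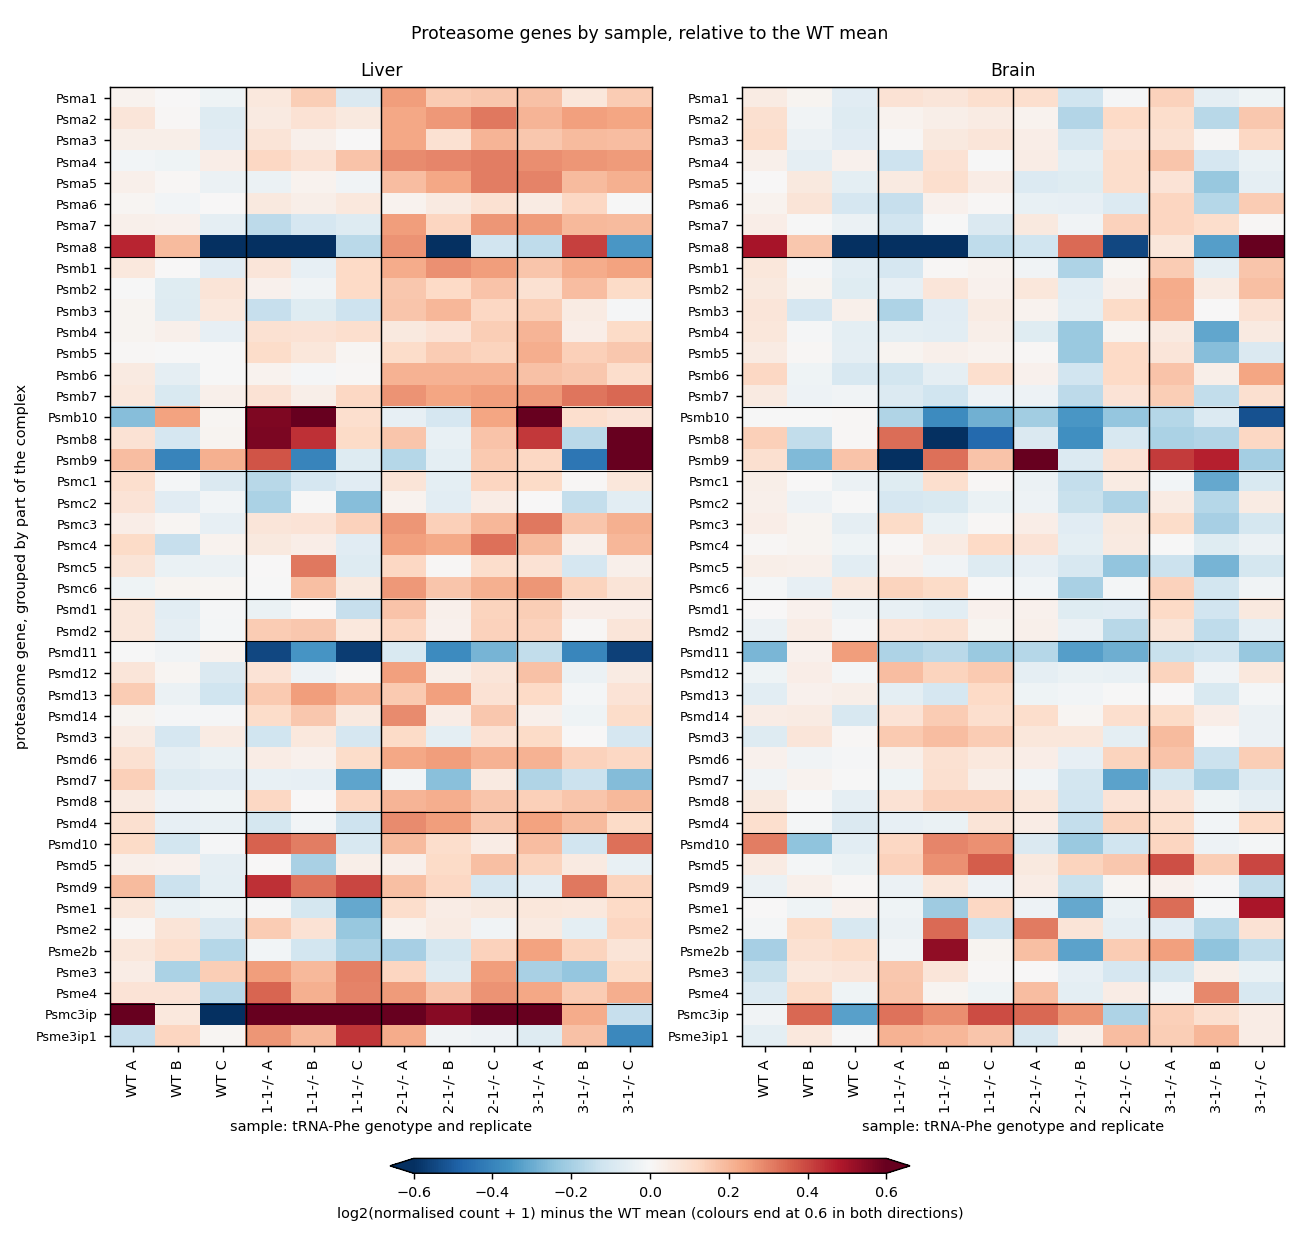
Log2(normalised count + 1) of each of the 45 proteasome genes tested, minus the WT mean of that gene, for the 12 liver samples (left) and 12 brain samples (right), with genes grouped by part of the complex and colours ending at 0.6 in both directions. In liver most values of the 14 core genes in tRNA-Phe-3-1-/- and tRNA-Phe-2-1-/- lie above the WT mean, and Psmd11 is below it in all 9 knockout samples.

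The shift could be read in single samples. The median deviation of the 14 core genes from their WT means was 0.22, 0.17 and 0.21 log2 units in the tRNA-Phe-2-1-/- livers and 0.19, 0.19 and 0.17 in the tRNA-Phe-3-1-/- livers. It was 0.03, -0.0004 and -0.01 in the WT livers and 0.06, 0.03 and 0.04 in the tRNA-Phe-1-1-/- livers. Every liver of tRNA-Phe-2-1-/- and of tRNA-Phe-3-1-/- thus lay above every WT and tRNA-Phe-1-1-/- liver. The median over all genes tested stayed between -0.004 and 0.01 in the same samples. In a check added after the data were seen, all 14 core genes stayed above 0 in both lines in each of the 23 other settings. Medians ran from 0.18 to 0.21 in tRNA-Phe-2-1-/- and from 0.16 to 0.19 in tRNA-Phe-3-1-/-. Many of these settings cannot change a fold change, so they are no check of it. They are the filters, the variance trend, the replicate block, the fit of only the groups compared, and leaving out a sample of another line. The settings that could change it were the pseudocounts, the scalings, edgeR, DESeq2 and leaving out a sample of WT or of the line itself.

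**Figure D2:**
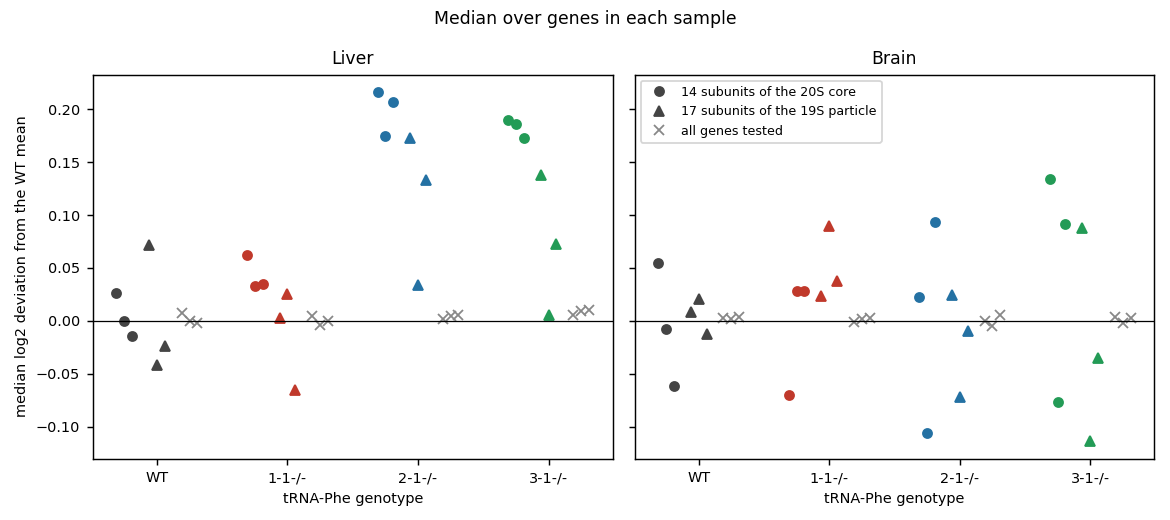
Median log2 deviation from the WT mean over the 14 core subunits (circles), the 17 subunits of the 19S particle (triangles) and all genes tested (crosses), for each sample by genotype in liver (left) and brain (right). In liver the circles of tRNA-Phe-3-1-/- and tRNA-Phe-2-1-/- lie between 0.17 and 0.22, above those of WT and tRNA-Phe-1-1-/-, while in brain the genotypes overlap.

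No single gene among them passed the test against WT in these lines. With limma, 0 of 45 were called in tRNA-Phe-2-1-/- (adjusted p under 0.05 over all genes; background 0.132% of genes) and 0 of 45 in tRNA-Phe-3-1-/- (background 0.883%). The unadjusted p was below 0.05 for 18 of 45 genes in tRNA-Phe-2-1-/-, against 14.9% of all genes tested, and for 15 of 45 in tRNA-Phe-3-1-/-, against 16.1%. In each line edgeR's quasi-likelihood test on recovered reads also called 0. DESeq2 on the recovered reads called 9 genes in tRNA-Phe-2-1-/-, against 3.55% of all genes it tested: Psma2, Psma4, Psma5, Psma7, Psmb1, Psmb6, Psmb7, Psmd6 and Psmd8. It called 6 in tRNA-Phe-3-1-/-, against 5.29%: Psma2, Psma4, Psma5, Psma7, Psmb7 and Psmc3. All of these were higher than WT. The limma count in tRNA-Phe-3-1-/- rose to 2 with a filter at a mean of 50, to 1 with quantile normalisation and to 1 without tRNA-Phe-1-1-/- replicate B.

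The lowest p-values in these comparisons fell on core genes. Psma4, an alpha ring subunit, had normalised counts of 2918, 2902 and 3035 in WT, 3594, 3617 and 3657 in tRNA-Phe-2-1-/- and 3579, 3544 and 3519.8 in tRNA-Phe-3-1-/-. Both lines lay above every WT sample, by 0.30 ± 0.06 (log2, SE) in tRNA-Phe-2-1-/- (limma, adjusted p = 0.0724) and 0.27 ± 0.06 in tRNA-Phe-3-1-/- (adjusted p = 0.0616). Psma2, another alpha ring subunit, had 2234, 2136 and 2016 in WT, 2501, 2546 and 2651 in tRNA-Phe-2-1-/- and 2451, 2525 and 2504 in tRNA-Phe-3-1-/-. Neither line overlapped WT for this gene, with differences of 0.27 ± 0.06 (adjusted p = 0.111) and 0.23 ± 0.06 (adjusted p = 0.115). Psmb7, which carries the trypsin-like site, had 3327, 2993 and 3253 in WT, 3848, 3759 and 3794 in tRNA-Phe-2-1-/- and 3816, 3978 and 4049 in tRNA-Phe-3-1-/-. The differences were 0.25 ± 0.07 (adjusted p = 0.136) and 0.31 ± 0.07 (adjusted p = 0.055), again without overlap.

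Across all 45 genes, 40 lay above 0 in tRNA-Phe-2-1-/- (median 0.12) and 39 in tRNA-Phe-3-1-/- (median 0.13), against medians of 0.0009 and 0.009 over all genes tested. Samples of the knockout all exceeded WT for 23 genes in tRNA-Phe-2-1-/-, against 13.1% of all genes, and for 18 in tRNA-Phe-3-1-/-, against 9.85%. They were all below WT for 1 and 2 genes, against 12.2% and 10.1% of all genes. In the 19S particle, 15 of 17 subunits lay above 0 in tRNA-Phe-2-1-/- (median 0.12) and 14 of 17 in tRNA-Phe-3-1-/- (median 0.06). Among its members without overlap in both lines were Psmc3 (0.20 and 0.23) and Psmc6 (0.21 and 0.16), ATPases of the base ring. Psmd4 (0.23 and 0.18), Psmd6 (0.23 and 0.16) and Psmd8 (0.20 and 0.17) behaved the same way. None of these passed the limma test. Whether core and 19S genes differed from each other was not tested. The median of the 45 genes in tRNA-Phe-3-1-/- was 0.18 without WT replicate A and 0.08 without WT replicate B.

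**Figure D3:**
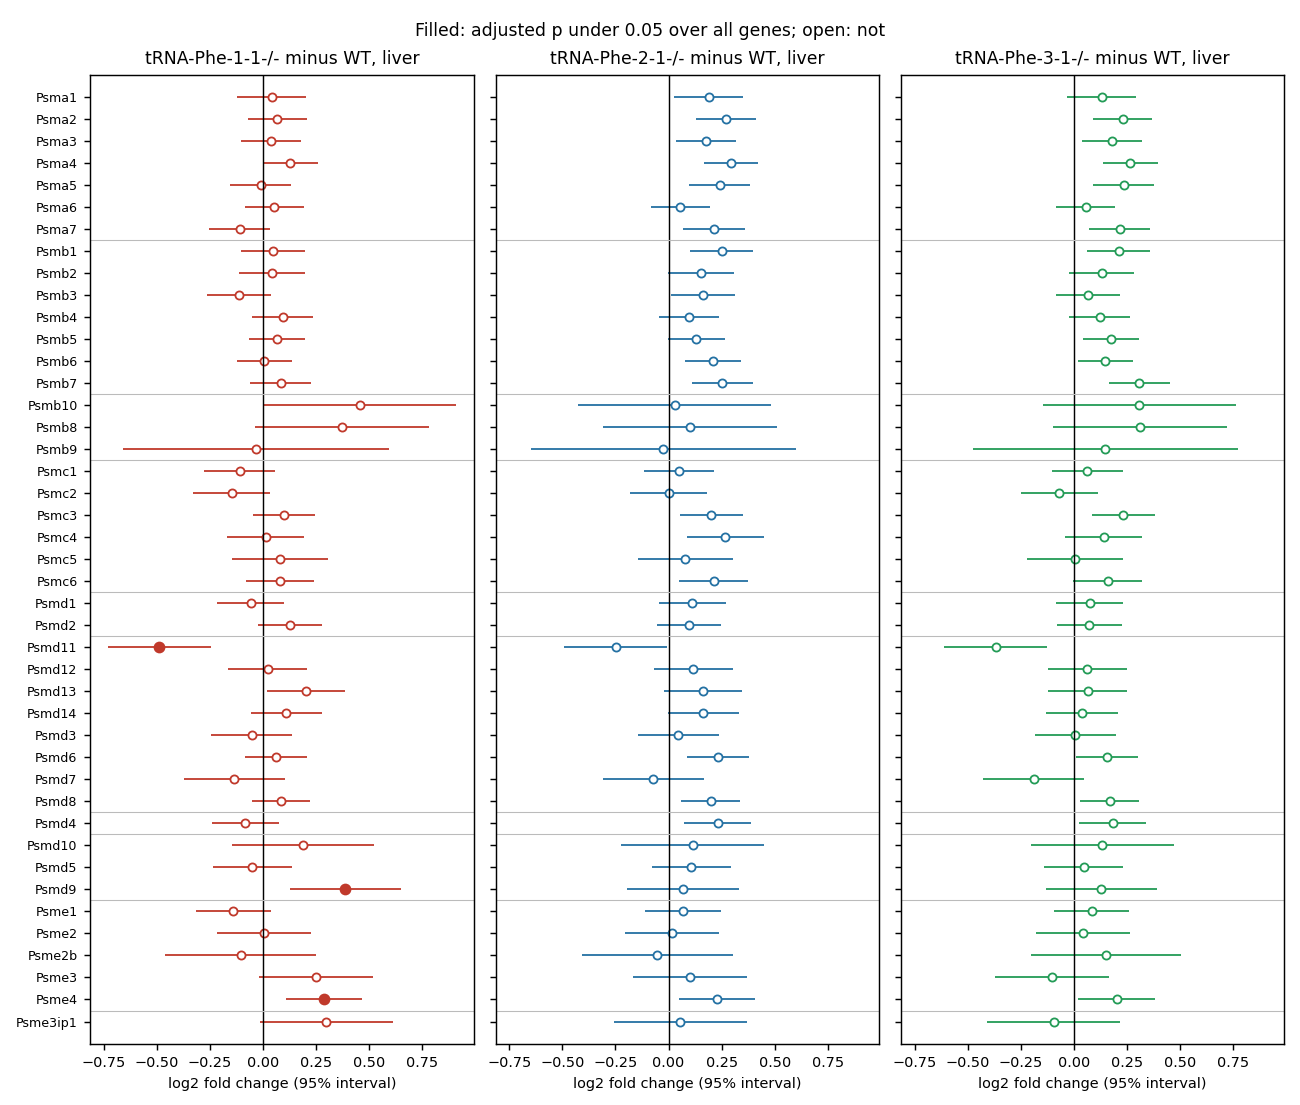
Log2 fold change in liver of the 43 proteasome genes whose mean normalised count reached 50, for each knockout line against WT, with 95% intervals from limma (lines), filled points where the adjusted p was below 0.05 and open points otherwise. The core genes at the top sit above 0 in tRNA-Phe-3-1-/- and tRNA-Phe-2-1-/-, whereas only Psmd11, Psme4 and Psmd9 in tRNA-Phe-1-1-/- are filled.

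Psmd11 went the other way. It encodes a scaffold subunit of the 19S lid, and its normalised counts were 3157, 3110.3 and 3210.5 in WT liver, 2163, 2469.6 and 2128 in tRNA-Phe-1-1-/-, 2969, 2429 and 2607 in tRNA-Phe-2-1-/- and 2849, 2405 and 2139 in tRNA-Phe-3-1-/-. All 9 knockout samples were below the lowest WT sample. In tRNA-Phe-1-1-/- it fell by 0.49 ± 0.11 on the log2 scale (limma, adjusted p = 0.0117), and this call held in all 24 settings, with adjusted p from 0.00104 to 0.0471. In tRNA-Phe-2-1-/- the difference was -0.25 ± 0.11 (adjusted p = 0.326) and in tRNA-Phe-3-1-/- it was -0.37 ± 0.11 (adjusted p = 0.139). Psmd7, another lid subunit, differed by -0.14, -0.07 and -0.19 in the 3 lines, with no call.

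**Figure D4:**
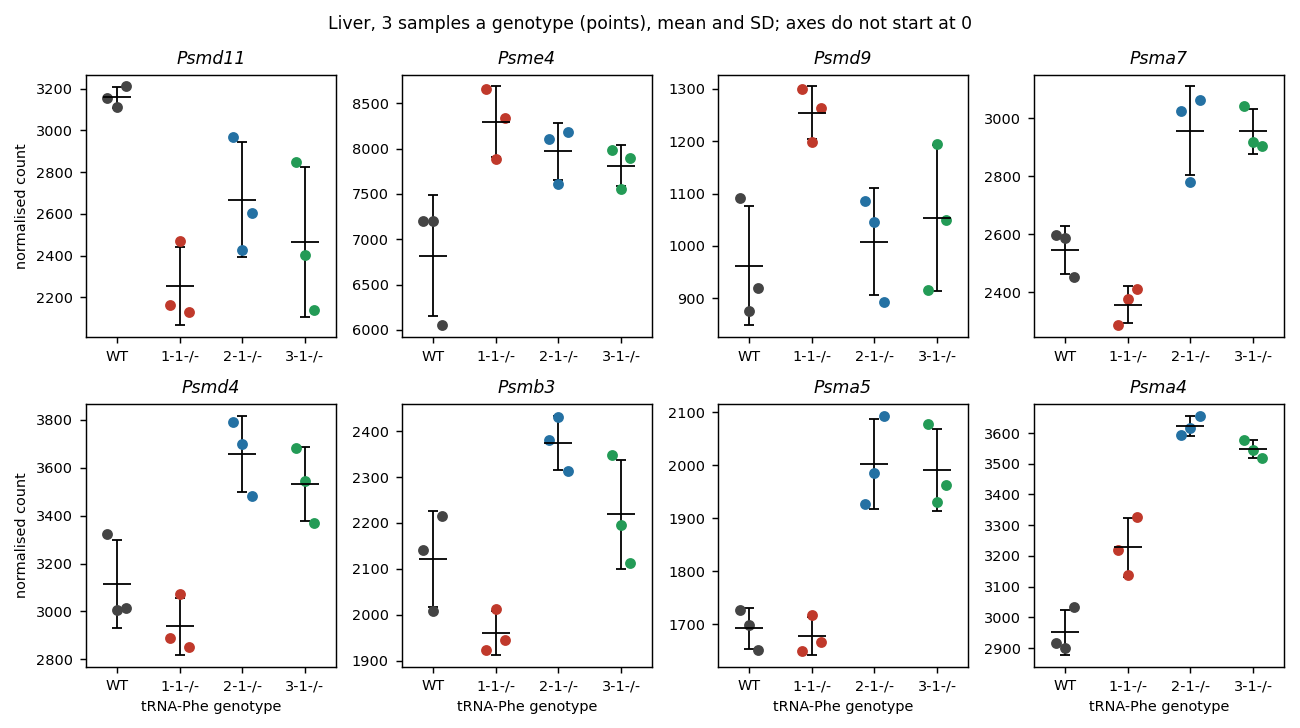
Normalised counts of 8 proteasome genes in each liver sample (points, 3 per genotype), with the mean (bar) and SD (whiskers); the axes differ between genes and do not start at 0. Psmd11 is highest in WT, Psme4 and Psmd9 are highest in tRNA-Phe-1-1-/-, and the other 5 genes are highest in tRNA-Phe-3-1-/- and tRNA-Phe-2-1-/-.

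The liver of tRNA-Phe-1-1-/- had 3 of 45 proteasome genes called against WT, compared with 17.3% of all genes tested, a share below that background. Samples all above WT were found for 12 genes and all below for 2, against 17.2% and 17.6% of all genes. The median of the 45 was 0.05. Besides Psmd11, the called genes were Psme4 and Psmd9, both higher. Psme4, the PA200 cap, had 7201, 7203 and 6049 in WT and 8661, 7881 and 8342 in tRNA-Phe-1-1-/-. Its tRNA-Phe-1-1-/- samples lay above all WT samples, although WT replicate C was lower than the others, and the difference was 0.29 ± 0.08 (adjusted p = 0.0332). It was 0.23 ± 0.08 in tRNA-Phe-2-1-/- (adjusted p = 0.242) and 0.20 ± 0.08 in tRNA-Phe-3-1-/- (adjusted p = 0.256). Psmd9, a chaperone of base assembly, had 1091, 876 and 919.7 in WT and 1299, 1199 and 1264 in tRNA-Phe-1-1-/-, a difference of 0.39 ± 0.12 (adjusted p = 0.0454).

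These 2 calls were less stable than that of Psmd11. Psme4 passed in 17 and Psmd9 in 12 of 24 settings, with adjusted p up to 0.132 and 0.147. The number called in tRNA-Phe-1-1-/- was 5 without WT replicate A, and 1 without WT replicate C, tRNA-Phe-1-1-/- replicate A or tRNA-Phe-1-1-/- replicate C. It was also 1 without the filter on low values, without the variance trend, with only the 6 samples compared, and with the replicate letter as a block. Psma7 was lower in every tRNA-Phe-1-1-/- liver than in every WT liver (2286, 2375 and 2412 against 2598, 2588 and 2452), at -0.11 ± 0.07 (adjusted p = 0.278).

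Some proteasome genes were lower in tRNA-Phe-1-1-/- than in another knockout line in liver, in numbers below the share over all genes. In tRNA-Phe-1-1-/- minus tRNA-Phe-2-1-/-, limma called 5 of 45 genes, all lower in tRNA-Phe-1-1-/-, against 15.9% of all genes tested. In tRNA-Phe-1-1-/- minus tRNA-Phe-3-1-/- it called 4, all lower, against 16.1%. Both counts are thus shares below the background. All 14 core genes were lower in tRNA-Phe-1-1-/- than in either other line, with medians of -0.17 and -0.14. In tRNA-Phe-2-1-/- minus tRNA-Phe-3-1-/-, limma called 0 of 45 (background 0%), none had an unadjusted p below 0.05, and edgeR and DESeq2 called 0 (DESeq2 background 0.183%). In that comparison 6.68% of all genes had an unadjusted p below 0.05. The lowest p-values there were for the activator Psme3 (0.20 ± 0.12, adjusted p = 0.816), the lid deubiquitinase Psmd14 (0.13) and the ATPase Psmc4 (0.13), and the 95% intervals of the core genes spanned -0.20 to 0.25.

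The gene with the lowest p in both was Psma7, an alpha ring subunit with 3026, 2782 and 3063 in tRNA-Phe-2-1-/-, 3043, 2916 and 2903 in tRNA-Phe-3-1-/- and 2286, 2375 and 2412 in tRNA-Phe-1-1-/-. It fell by 0.33 ± 0.07 in tRNA-Phe-1-1-/- relative to tRNA-Phe-2-1-/- (limma, adjusted p = 0.00767) and by 0.33 ± 0.07 relative to tRNA-Phe-3-1-/- (adjusted p = 0.00779). Psmd4, the ubiquitin receptor, had 2891, 3072 and 2851 in tRNA-Phe-1-1-/-, 3792, 3698 and 3480.5 in tRNA-Phe-2-1-/- and 3681, 3545 and 3371 in tRNA-Phe-3-1-/-, without overlap. It fell by 0.32 ± 0.07 relative to tRNA-Phe-2-1-/- (adjusted p = 0.0135) and by 0.27 ± 0.07 relative to tRNA-Phe-3-1-/- (adjusted p = 0.0284). Psma5, of the alpha ring, had 1649.6, 1718 and 1667 in tRNA-Phe-1-1-/-, 1926, 1985 and 2093 in tRNA-Phe-2-1-/- and 2078, 1929.7 and 1963 in tRNA-Phe-3-1-/-. It fell by 0.25 ± 0.07 relative to each (adjusted p = 0.024 and 0.0271).

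Psmb3, a non-catalytic beta subunit, had 1923, 2014 and 1945 in tRNA-Phe-1-1-/- and 2381, 2430.3 and 2314 in tRNA-Phe-2-1-/-. It fell by 0.28 ± 0.07 (adjusted p = 0.0202). Psmb6, the caspase-like catalytic subunit, had 3458, 3390.0 and 3424 in tRNA-Phe-1-1-/- and 3944, 3944 and 3943 in tRNA-Phe-2-1-/-. The tRNA-Phe-2-1-/- samples agreed to within 1 count, and Psmb6 fell by 0.20 ± 0.06 in tRNA-Phe-1-1-/- (adjusted p = 0.0393). Psmb7 fell by 0.23 ± 0.07 in tRNA-Phe-1-1-/- relative to tRNA-Phe-3-1-/- (adjusted p = 0.0376). Of 24 settings, the calls against tRNA-Phe-2-1-/- held in 24 for Psma7, 22 for Psmd4, 21 for Psmb3, 17 for Psma5 and 11 for Psmb6. Those against tRNA-Phe-3-1-/- held in 23 for Psma7, 16 for Psmd4, 16 for Psma5 and 11 for Psmb7. The count against tRNA-Phe-2-1-/- was 2 without tRNA-Phe-1-1-/- replicate A or tRNA-Phe-2-1-/- replicate A, 1 without tRNA-Phe-2-1-/- replicate B and 3 without tRNA-Phe-2-1-/- replicate C. The count against tRNA-Phe-3-1-/- was 1 without tRNA-Phe-1-1-/- replicate A or tRNA-Phe-3-1-/- replicate A and 2 without tRNA-Phe-1-1-/- replicate C. The median of the 45 genes against tRNA-Phe-2-1-/-, -0.11, was -0.15 without tRNA-Phe-2-1-/- replicate B. A single test of any difference among the 4 genotypes called 7 of 45 in liver (Psma2, Psma4, Psma5, Psma7, Psmb7, Psmd4 and Psmd11), against 17% of all genes, a share near that background. That count was 4 without WT replicate B or tRNA-Phe-2-1-/- replicate C and 3 without WT replicate C or tRNA-Phe-1-1-/- replicate A.

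The promoters of the 4 genes with the lowest adjusted p in tRNA-Phe-1-1-/- minus tRNA-Phe-2-1-/- are shown, chosen by that p alone. Each is 300 bases of RefSeq sequence on GRCm38.p6, running from 250 bases before the annotated start to 50 bases after it, 5′ to 3′ on the strand of the gene, with CCAAT boxes (CCAAT on either strand) in capitals. Psma7 is at chr2:180042415-180042714 (minus strand), Psmd4 at chr3:95042565-95042864 (minus strand), Psmb3 at chr11:97703184-97703483 (plus strand) and Psma5 at chr3:108256676-108256975 (plus strand).
Psma7: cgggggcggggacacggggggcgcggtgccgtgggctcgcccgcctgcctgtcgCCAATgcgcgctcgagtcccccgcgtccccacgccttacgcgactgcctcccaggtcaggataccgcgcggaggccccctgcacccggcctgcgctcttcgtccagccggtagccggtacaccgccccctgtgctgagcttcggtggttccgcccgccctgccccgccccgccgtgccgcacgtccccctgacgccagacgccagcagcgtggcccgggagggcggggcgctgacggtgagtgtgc
Psmd4: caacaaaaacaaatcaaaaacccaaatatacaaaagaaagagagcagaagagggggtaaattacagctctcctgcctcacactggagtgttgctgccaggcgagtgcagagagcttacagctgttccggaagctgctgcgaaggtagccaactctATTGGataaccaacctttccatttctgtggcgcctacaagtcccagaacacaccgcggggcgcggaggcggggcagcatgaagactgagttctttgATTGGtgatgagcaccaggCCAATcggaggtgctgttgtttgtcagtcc
Psmb3: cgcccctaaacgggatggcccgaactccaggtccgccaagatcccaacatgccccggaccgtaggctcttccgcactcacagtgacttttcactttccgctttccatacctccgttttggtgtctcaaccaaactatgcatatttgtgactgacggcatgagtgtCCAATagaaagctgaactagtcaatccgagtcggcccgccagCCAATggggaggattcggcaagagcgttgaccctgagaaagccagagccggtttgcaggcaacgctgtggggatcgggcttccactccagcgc
Psma5: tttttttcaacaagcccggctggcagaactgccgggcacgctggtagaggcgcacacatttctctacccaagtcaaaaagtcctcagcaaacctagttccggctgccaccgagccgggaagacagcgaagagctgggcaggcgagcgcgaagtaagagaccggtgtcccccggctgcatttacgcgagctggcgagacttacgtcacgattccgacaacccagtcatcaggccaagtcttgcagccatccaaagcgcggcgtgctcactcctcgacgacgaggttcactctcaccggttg

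A CCAAT box was present in Psma7, Psmd4 and Psmb3 and was not found in the Psma5 window. The antioxidant response element core TGACNNNGC, to which Nfe2l1 and Nfe2l2 bind, and the heat shock core GAANNTTC, both searched on either strand, were not found in the 4 windows. Over 43 such windows of 39 proteasome genes, 37.2% held CCAAT, 13.95% the antioxidant core and 4.65% the heat shock core. The shares over all 32851 windows were 37.4%, 12.4% and 7.86%. Letter matches describe sequence only.

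The inducible subunits varied widely between livers of one genotype. Psmb8 had normalised counts of 664, 582 and 632 in WT, 926, 846 and 677 in tRNA-Phe-1-1-/-, 703, 606 and 705 in tRNA-Phe-2-1-/- and 839, 558 and 998 in tRNA-Phe-3-1-/-. The tRNA-Phe-1-1-/- samples lay above WT, whereas tRNA-Phe-3-1-/- spanned the WT range. The differences from WT were 0.37 ± 0.19 (limma, adjusted p = 0.198), 0.10 ± 0.19 (adjusted p = 0.841) and 0.31 ± 0.19 (adjusted p = 0.452). Psmb10 had 609.7, 859 and 734 in WT, 1073, 1186 and 779 in tRNA-Phe-1-1-/-, 703, 677 and 857 in tRNA-Phe-2-1-/- and 1216, 779 and 770.1 in tRNA-Phe-3-1-/-, overlapping WT in each line. Its differences were 0.45 ± 0.21, 0.03 ± 0.21 and 0.31 ± 0.21, with adjusted p of 0.157, 0.965 and 0.507. Psmb9 had 418, 279.7 and 427 in WT and ranged from 272 to 621 in the knockouts, with differences of -0.03, -0.02 and 0.15 ± 0.29. Leaving out single samples turned the sign for Psmb9 in all 3 lines and for Psmb10 in tRNA-Phe-2-1-/-.

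The PA28 subunits that interferon induces with them were steadier. Psme1 had 2200.3, 2038 and 2059 in WT and 2085, 1953 and 1694 in tRNA-Phe-1-1-/-, with differences of -0.14 ± 0.08, 0.07 ± 0.08 and 0.08 ± 0.08 in tRNA-Phe-1-1-/-, in tRNA-Phe-2-1-/- and in tRNA-Phe-3-1-/-. Psme2 had 1525, 1605 and 1432 in WT, and its differences were 0.004, 0.02 and 0.04 ± 0.10. Its sign turned with quantile normalisation in tRNA-Phe-1-1-/- and tRNA-Phe-2-1-/- and on leaving out single samples in all 3 lines. None was called. Psme2b is a close copy of Psme2, so how reads were split between them is uncertain. Of 14 interferon and antigen presentation genes outside the rule, 0 were called in any line in liver (lowest adjusted p = 0.0939). Their medians were 0.34 in tRNA-Phe-1-1-/- (12 of 14 above 0), -0.02 in tRNA-Phe-2-1-/- (7 of 14) and 0.15 in tRNA-Phe-3-1-/- (13 of 14).

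The mix of catalytic subunits was compared within each sample as the log2 ratio of an inducible to its constitutive counterpart. In WT liver, Psmb8/Psmb5 was -1.80 ± 0.09 (SD, n = 3), Psmb9/Psmb6 was -3.21 ± 0.30 and Psmb10/Psmb7 was -2.13 ± 0.32. In WT brain they were -4.67 ± 0.14, -6.12 ± 0.25 and -1.67 ± 0.05, so Psmb8 and Psmb9 made up a smaller share of their pairs in brain while Psmb10 did not. An exact permutation test of F among the 4 genotypes did not pass in any of the 6 tests, with p from 0.224 to 0.873 and adjusted p from 0.726 to 0.873. In brain, Psmb10/Psmb7 was -1.88 ± 0.09 in tRNA-Phe-1-1-/-, -1.90 ± 0.07 in tRNA-Phe-2-1-/- and -1.96 ± 0.34 in tRNA-Phe-3-1-/-. Its adjusted exact p of 0.726 became 0.00818 without tRNA-Phe-3-1-/- replicate B, the sole brain knockout above the WT range (ratio 0.329 against 0.302 to 0.320). Leaving out single samples changed the outcome of a ratio test in this 1 case and not in the 71 others, so no difference is read from it.

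**Figure D5:**
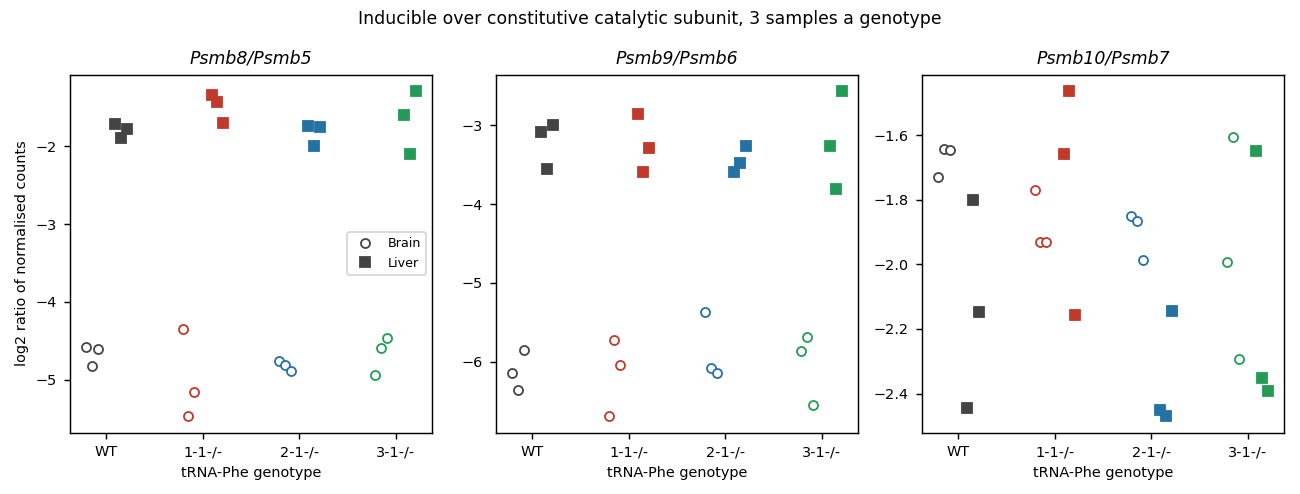
Log2 ratio of the normalised counts of each inducible catalytic subunit to its constitutive counterpart in each sample, by genotype, for brain (open circles) and liver (filled squares). Psmb8/Psmb5 and Psmb9/Psmb6 are higher in all liver than in all brain samples, the Psmb10/Psmb7 ranges overlap, and within a tissue the genotypes overlap for most ratios.

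Genes of the same pathway outside the rule were read from lists, for which the background in tRNA-Phe-1-1-/- liver was 17.3% of all genes tested. Among 8 other subunits, assembly chaperones and inhibitors, 1 was called in tRNA-Phe-1-1-/- liver: Psmf1, the inhibitor PI31, with 802, 760.0 and 800.4 in WT and 680.4, 659 and 667 in tRNA-Phe-1-1-/-, fell by 0.23 ± 0.07 (limma, adjusted p = 0.0401). Among 7 transcription factors of proteasome genes and proteins that act on them or on the proteasome, 2 were called, both lower. Zfand5, which binds the proteasome and stimulates it, had 2276, 2395 and 2527 in WT and 1479, 1403 and 1548 in tRNA-Phe-1-1-/-. It fell by 0.70 ± 0.08 (adjusted p = 0.000357), without overlap. Ngly1, the deglycosylase that processes Nfe2l1, had 1605, 1666 and 1669 in WT and 1481, 1361 and 1351 in tRNA-Phe-1-1-/-, and fell by 0.24 ± 0.08 (adjusted p = 0.0496). Nfe2l1 itself had 4019, 4580.0 and 3759 in WT and 3587, 3749.8 and 3281 in tRNA-Phe-1-1-/-, a difference of -0.22 ± 0.13 (adjusted p = 0.276).

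Among 22 ubiquitin, shuttle and proteasome-bound enzyme genes, 1 was called higher and 2 lower in tRNA-Phe-1-1-/- liver, against the same background of 17.3%. Ubb was the gene called higher, and Nsfl1c was among those called lower. Ubb, a polyubiquitin gene, had 10017, 10277 and 11999 in WT and 15869.5, 15786 and 15709 in tRNA-Phe-1-1-/- and rose by 0.56 ± 0.09 (adjusted p = 0.00221). Nsfl1c, a cofactor of the segregase Vcp, fell by 0.26 ± 0.07 (adjusted p = 0.033). In tRNA-Phe-2-1-/- and in tRNA-Phe-3-1-/- no gene of these lists was called against WT in liver, and the lowest adjusted p was 0.0616.

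Between the lines, Psmf1, Ngly1, Zfand5, Ubb and Nsfl1c were also called in both tRNA-Phe-1-1-/- minus tRNA-Phe-2-1-/- (background 15.9%) and tRNA-Phe-1-1-/- minus tRNA-Phe-3-1-/- (16.1%). Of the 22 ubiquitin, shuttle and enzyme genes, 2 were called higher and 2 lower in the first comparison. In the second, 3 were called higher and 3 lower. Psmf1 fell by 0.31 ± 0.07 and 0.32 ± 0.07 (adjusted p = 0.0129 and 0.0117), and Zfand5 fell by 0.64 ± 0.08 and 0.61 ± 0.08 (adjusted p = 0.000682 and 0.000854). Rad23b, which shuttles ubiquitinated proteins, was lower in tRNA-Phe-1-1-/- and fell by 0.57 ± 0.10 and 0.46 ± 0.10 (adjusted p = 0.00353 and 0.0103). Ubqln2 was higher in tRNA-Phe-1-1-/- by 0.48 ± 0.15 and 0.62 ± 0.15 (adjusted p = 0.049 and 0.0171). Ubqln4, of the ubiquilin family, was called in tRNA-Phe-1-1-/- minus tRNA-Phe-3-1-/- (0.37 ± 0.11, adjusted p = 0.0387) and was 0.19 ± 0.11 in tRNA-Phe-1-1-/- minus tRNA-Phe-2-1-/- (adjusted p = 0.25), and whether these differed was not tested.

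Summed cell type markers varied between the liver samples. The hepatocyte marker sum was 2594470 to 3255590 in WT, 2004890 to 2537400 in tRNA-Phe-1-1-/-, 2173100 to 2416570 in tRNA-Phe-2-1-/- and 2804810 to 3341470 in tRNA-Phe-3-1-/-. This sum was below WT in every tRNA-Phe-1-1-/- and tRNA-Phe-2-1-/- liver and overlapped WT in tRNA-Phe-3-1-/-. It is carried mostly by Alb, the serum albumin gene, with 1834560, 2409410 and 2245640 in WT and 1433460, 1687030 and 1662670 in tRNA-Phe-2-1-/-. Fabp1, a fatty acid binding protein gene, went the other way in tRNA-Phe-2-1-/-, with 119289, 137625 and 123938 against 115287, 82483 and 84422 in WT. None of the 6 hepatocyte markers was called against WT in any line (limma, lowest adjusted p = 0.234). Between lines, 1 of the 6 was called, lower in tRNA-Phe-1-1-/- than in tRNA-Phe-2-1-/- (limma, adjusted p = 0.0421, background 15.9%). The sum of 14 leukocyte and macrophage markers was 8578 to 9132 in WT, 8733 to 10890 in tRNA-Phe-1-1-/-, 8272 to 8843 in tRNA-Phe-2-1-/- and 7912 to 13546 in tRNA-Phe-3-1-/-. In tRNA-Phe-1-1-/- limma called S100a8 (2.52) and S100a9 (2.56) higher than WT and 1 of these markers lower (background 17.3%). In tRNA-Phe-2-1-/- and in tRNA-Phe-3-1-/- it called none. Of these markers, 4 were called higher and 1 lower in tRNA-Phe-1-1-/- minus tRNA-Phe-2-1-/- (background 15.9%). In tRNA-Phe-1-1-/- minus tRNA-Phe-3-1-/-, 2 were called higher and 2 lower (16.1%). The interferon list summed to 55289 to 57810 in WT, 57761 to 74637 in tRNA-Phe-1-1-/-, 60479 to 63105 in tRNA-Phe-2-1-/- and 58890 to 76926 in tRNA-Phe-3-1-/-. That sum is carried mostly by B2m, with 29647, 28970.5 and 31285 in WT and 32899, 33169 and 32648 in tRNA-Phe-2-1-/-. Over the 14 genes of the list the median log2 fold change in tRNA-Phe-2-1-/- was -0.02, with 7 above and 7 below 0. The part of these shifts in the proteasome values was not tested.

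In brain no proteasome gene passed the test. With limma, 0 of 45 were called against WT in tRNA-Phe-1-1-/- (background 1.05% of 19228 genes tested), in tRNA-Phe-2-1-/- (background 0%) and in tRNA-Phe-3-1-/- (background 0%). The unadjusted p was below 0.05 for 5, 2 and 3 genes, against 15.9%, 5.57% and 12.3% of all genes. In each line edgeR called 0, and DESeq2 called 0 in tRNA-Phe-1-1-/- (background 4.65%), 0 in tRNA-Phe-2-1-/- (0.099%) and 1 in tRNA-Phe-3-1-/- (1.98%). The medians of the 45 genes were 0.02, -0.01 and 0.02, and those of the 14 core genes -0.02, -0.009 and 0.03. Knockout samples were all above WT for 8, 1 and 1 genes, against 12.8%, 6.02% and 7.93% of all genes. They were all below for 2, 4 and 3 genes, against 12.4%, 5.43% and 8.48%. Between lines, limma called 0 in tRNA-Phe-1-1-/- minus tRNA-Phe-2-1-/- (background 0.53%), in tRNA-Phe-1-1-/- minus tRNA-Phe-3-1-/- (2.11%) and in tRNA-Phe-2-1-/- minus tRNA-Phe-3-1-/- (0%). The unadjusted p was below 0.05 for 3, 2 and 2 genes, against 13.7%, 19.5% and 9.93% of all genes. In each of them edgeR called 0, and DESeq2 called 1, 0 and 0, against 3.72%, 6.91% and 0.865%. The test of any difference among genotypes called 0 with limma (background 0.634%), with 2 genes at an unadjusted p below 0.05 against 17.6% of all genes, 0 with edgeR and 1 with DESeq2 (background 8.41%).

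Among the brain comparisons with WT, a base chaperone and an inducible catalytic subunit had the lowest p-values. Psmd5 had 1345, 1288 and 1261 in WT, 1430.0, 1570.0 and 1667 in tRNA-Phe-1-1-/-, 1353, 1423 and 1451 in tRNA-Phe-2-1-/- and 1696, 1436 and 1715 in tRNA-Phe-3-1-/-, so every knockout brain lay above every WT brain. Its differences were 0.26 ± 0.09 (limma, adjusted p = 0.171), 0.12 ± 0.09 (adjusted p = 0.938) and 0.31 ± 0.09 (adjusted p = 0.222), and DESeq2 called it in tRNA-Phe-3-1-/-. Psmb10 had 883, 882 and 888 in WT, 781, 682 and 724 in tRNA-Phe-1-1-/-, 765, 693 and 754 in tRNA-Phe-2-1-/- and 784, 836 and 615 in tRNA-Phe-3-1-/-. All 9 knockout brains were below WT, by 0.28, 0.26 and 0.26 ± 0.11 on the log2 scale, with adjusted p of 0.236, 0.894 and 0.371. The WT brains lay close together for this gene (885 ± 3.26, SD, n = 3).

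Other named brain genes showed smaller or less regular differences. Psmd12, of the lid, had 1301, 1359 and 1313 in WT and 1506, 1451 and 1475 in tRNA-Phe-1-1-/-, at 0.16 ± 0.06 (adjusted p = 0.241). It was 0.20 ± 0.06 higher in tRNA-Phe-1-1-/- than in tRNA-Phe-2-1-/- (adjusted p = 0.175) and was the gene DESeq2 called there. Psmd11 was -0.19, -0.27 and -0.16 ± 0.11 relative to WT, and overlapped WT in each line, where the WT brains had 849, 1048 and 1224. Psmd7 in tRNA-Phe-2-1-/- (-0.15 ± 0.08) and Psmc5 in tRNA-Phe-3-1-/- (-0.17 ± 0.07) had the third lowest p-values, with adjusted p of 0.913 and 0.381. Psmb8 (43.6 to 95.1 normalised counts) and Psmb9 (19.5 to 55.4) were low and overlapped WT in each line, at -0.30, -0.18 and -0.08 ± 0.26 and at -0.06, 0.26 and 0.23 ± 0.34. Psme1 was 0.27 ± 0.14 in tRNA-Phe-3-1-/- (adjusted p = 0.449), and Psme2 was at 0.06, 0.11 and -0.05 ± 0.14. Leaving out single samples turned the sign of Psmb9, Psme1 and Psme2 in tRNA-Phe-1-1-/- and of Psme2 in tRNA-Phe-3-1-/-. Between lines the lowest p-values also fell on Psmd10 (0.37) and Psmd7 (0.19) in tRNA-Phe-1-1-/- minus tRNA-Phe-2-1-/-, on Psme1 (-0.31), Psma7 (-0.15) and Psmc5 (0.15) in tRNA-Phe-1-1-/- minus tRNA-Phe-3-1-/-, and on Psme1 (-0.40), Psmd5 (-0.19) and Psmb1 (-0.15) in tRNA-Phe-2-1-/- minus tRNA-Phe-3-1-/-. Of the lists outside the rule other than cell type markers, 1 gene was called in brain. Uba6, a ubiquitin-activating enzyme, was 0.35 ± 0.08 higher in tRNA-Phe-1-1-/- than in tRNA-Phe-3-1-/- (limma, adjusted p = 0.0485, background 2.11%). In the same comparison 1 of 14 macrophage, microglia and leukocyte markers was called, also higher in tRNA-Phe-1-1-/- (limma, adjusted p = 0.0451). The neuronal and glial marker sum was 224707 to 241741 in WT brains, 176030 to 188393 in tRNA-Phe-1-1-/-, 179222 to 230160 in tRNA-Phe-2-1-/- and 172338 to 209866 in tRNA-Phe-3-1-/-, and its part in these values was not tested.

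The coding sequences of the 46 genes held a median of 3.20% phenylalanine codons (TTT and TTC; range 1.30% to 4.58%), against 3.74% over 21770 protein-coding genes. The expression values are of messenger RNA and do not measure how these codons were translated.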

How the data were processed

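Total RNA from brain and liver was sequenced as TruSeq libraries. Per the labels and the study's methods, the authors trimmed reads with Trim Galore, quantified transcripts with Salmon against GENCODE annotation of mouse build GRCm38, summarised them to genes and divided by DESeq2 size factors. The deposited signal values are these normalised counts, one table per tissue, each scaled separately. All values above 0 (100%) were whole multiples of the value of 1 read (tolerance 0.01 reads), so read counts and depth were recovered. Gene symbols were found for 93.2% of identifiers.

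Genes with a mean of at least 10 were tested on log2(normalised count + 1) with limma 3.58.1 (R 4.3.3), fitting the 12 samples of a tissue with a variance trend. P-values were adjusted by Benjamini-Hochberg over all genes and called under 0.05. Fold changes are on that log scale, so those of low genes are understated. Catalytic ratios were tested by exact permutation of genotype labels (15400 arrangements). edgeR 4.0.16 and DESeq2 1.42.0 on recovered reads, other filters, pseudocounts and scalings, a replicate block and leaving out each sample were alternatives. The fitting was tested on simulated data. Replicate letters did not pair the samples, as deviations of same-lettered samples correlated over 0.1 for every pair only in brain tRNA-Phe-2-1-/- against tRNA-Phe-3-1-/- (0.13 to 0.49), where the block gave no call either. The members and gene lists were chosen with earlier results of these data known. Genes named in full were those called, the inducible subunits with Psme1 and Psme2, and the 3 of lowest p where none was called; others named were chosen after their values were seen. Tables of the authors' own comparisons hold fold changes and p-values and were not used. Some genes of the lists are not reported here.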

Additional observations from a re-analysis of the deposited data

Results flagged for a closer look

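In liver, the effect relative to WT differed by the limma test of the difference itself for 5 of 45 proteasome genes in tRNA-Phe-1-1-/- minus tRNA-Phe-2-1-/- and for 4 of 45 in tRNA-Phe-1-1-/- minus tRNA-Phe-3-1-/-. Both counts are shares below those over all genes tested, 15.9% and 16.1%. The log2 fold change in tRNA-Phe-1-1-/- relative to tRNA-Phe-2-1-/- was -0.33 for Psma7, -0.32 for Psmd4, -0.28 for Psmb3, -0.25 for Psma5 and -0.20 for Psmb6. Relative to tRNA-Phe-3-1-/- it was -0.33 for Psma7, -0.27 for Psmd4, -0.25 for Psma5 and -0.23 for Psmb7. All 9 differences were lower in tRNA-Phe-1-1-/-. Their samples did not overlap, but these genes were chosen by the test on the same samples, so this adds no support. The share of all genes without overlap between lines was not computed. Of 24 settings, those relative to tRNA-Phe-2-1-/- passed in 24, 22, 21, 17 and 11, in the order given, and those relative to tRNA-Phe-3-1-/- in 23, 16, 16 and 11. No group had 4 or more samples, so single samples were not tested for standing apart.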

How the results depend on the processing

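With 3 samples a group, calls near the threshold moved with the settings, and the cause was not tested. Under DESeq2, liver counts of called genes were 9 in tRNA-Phe-2-1-/- and 6 in tRNA-Phe-3-1-/- against WT. They were 10 in tRNA-Phe-1-1-/- minus tRNA-Phe-2-1-/-, 7 in tRNA-Phe-1-1-/- minus tRNA-Phe-3-1-/- and 16 among genotypes. For the counts of 10, 7 and 16 the DESeq2 share over all genes was not computed. The limma shares there were 15.9%, 16.1% and 17%, so these counts are not read as high or low. In brain DESeq2 called 1 each for tRNA-Phe-3-1-/- against WT, tRNA-Phe-1-1-/- minus tRNA-Phe-2-1-/- and the genotypes. Without a filter on low values, tRNA-Phe-1-1-/- against WT, against tRNA-Phe-2-1-/- and against tRNA-Phe-3-1-/- had 1, 3 and 1; without a variance trend 1, 3 and 1, with 2 among genotypes; with only the groups compared 1, 3 and 0. In tRNA-Phe-3-1-/- against WT a mean of at least 50 gave 2 and quantile normalisation 1. The replicate block gave 1 in tRNA-Phe-1-1-/- against WT, 3 in tRNA-Phe-1-1-/- minus tRNA-Phe-2-1-/- and 4 among genotypes, and moved no other count by over 1.5 times; the letters are a name only.

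Leaving out 1 sample gave liver counts of 1 to 5 in tRNA-Phe-1-1-/- and 0 to 1 in tRNA-Phe-3-1-/- against WT, 1 to 6 and 1 to 4 in tRNA-Phe-1-1-/- minus tRNA-Phe-2-1-/- and minus tRNA-Phe-3-1-/-, and 3 to 7 among genotypes. Medians then ran from 0.0821 to 0.175 in tRNA-Phe-3-1-/- against WT and from -0.15 to -0.10 in tRNA-Phe-1-1-/- minus tRNA-Phe-2-1-/-, and the adjusted exact p of Psmb10/Psmb7 in brain from 0.00818 to 0.873. Quantile normalisation turned Psmb9 in brain of tRNA-Phe-1-1-/- (0.0015) and Psme2 in liver of tRNA-Phe-1-1-/- (-0.02025) and of tRNA-Phe-2-1-/- (-0.002498). Without single samples the log2 difference from WT in liver ran, for Psmb9, from -0.237 to 0.149 in tRNA-Phe-1-1-/-, -0.222 to 0.0823 in tRNA-Phe-2-1-/- and -0.155 to 0.439 in tRNA-Phe-3-1-/-; for Psme2, from -0.0720 to 0.1195 in tRNA-Phe-1-1-/-, -0.0255 to 0.0567 in tRNA-Phe-2-1-/- and -0.00202 to 0.0931 in tRNA-Phe-3-1-/-; and for Psmb10 from -0.0977 to 0.149 in tRNA-Phe-2-1-/-. In brain it ran from -0.259 to 0.251 for Psmb9, -0.119 to 0.051 for Psme1 and -0.0809 to 0.152 for Psme2 in tRNA-Phe-1-1-/-, and from -0.1198 to 0.00881 for Psme2 in tRNA-Phe-3-1-/-.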
